A study of Mus musculus with 6 samples.

Results

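The 10 genes described here serve integrin-mediated adhesion and were followed in glomeruli of dendrin-deficient mice: Npnt, which encodes the matrix ligand nephronectin, the alpha subunit genes Itga1, Itga3, Itga5, Itga8 and Itgav, the beta subunit genes Itgb1, Itgb5 and Itgb8, and Ilk, which encodes integrin-linked kinase. They were chosen as integrin genes of the glomerulus, and every probe set (the group of short probes that reads 1 transcript) annotated to exactly 1 of these 10 genes was kept. This gave 33 of the 45101 probe sets on the array, and 10 of the 18194 genes with a probe set of their own. The knockout group held 3 dendrin-deficient mice, in which an eGFP and neomycin resistance cassette stood in place of both dendrin coding exons in every cell of the body. The control group held 3 littermates with the genotype label wild type. All 6 mice, 1 array each, were 13 months old and had the genetic background labelled 129S6SvEv/C57BL6, whereas the methods of the study describe backcrossing to C57BL/6. Total RNA of isolated kidney glomeruli was hybridised to Affymetrix Mouse Genome 430 2.0 arrays, and the values are log2 expression values normalised with GCRMA. Arrays give no read depth, so the number of mice limits the precision.

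Integrins are cell surface receptors made of 1 alpha and 1 beta chain that tie the matrix outside the cell to the actin cytoskeleton within it. In the glomerulus, the receptor of Itga3 and Itgb1 holds podocytes to laminin of the glomerular basement membrane, and the receptor of Itga8 and Itgb1 on mesangial cells binds nephronectin, which podocytes deposit in that membrane. Itgav pairs with Itgb5 in a vitronectin receptor and with Itgb8 in a receptor that activates latent TGF-beta, and Ilk is an adaptor that joins beta chain tails to parvin and PINCH proteins. Dendrin itself is a protein of the podocyte foot process, on the inner side of the slit diaphragm.

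The knockout arrays matched their labels, since Ddn, the dendrin gene, had 3.80, 3.81 and 3.80 in knockout glomeruli, against 12.22, 12.81 and 12.31 in control glomeruli (difference -8.64 on the log2 scale, limma adjusted p = 0.0197). It was the single probe set of the array with an adjusted p under 0.05. Array pairs correlated at 0.973 to 0.995 over the probe sets that were not dim, and the lowest of these values involved control 2. The 4 loop, distal tubule and collecting duct markers that were not dim had a median deviation of 2.16 log2 units from their 6-array mean on control 2. The median deviation there was 1.08 for the 9 proximal tubule markers and -1.62 for the 15 leukocyte markers. Member differences are therefore given with and without control 2 where it changed a call or a sign.

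The proximal promoters of Itgb5, Itgb8 and Npnt are shown because these 3 genes correlated at 0.86 to 0.94 with each other over the 6 arrays, a choice made after their values were seen. Each is the 250 bases before the annotated start, 5′ to 3′ on the strand of the gene, from RefSeq on GRCm38.p6. Itgb5 lies at chr16:33829415-33829664 on the plus strand, Itgb8 at chr12:119238277-119238526 on the minus strand and Npnt at chr3:132950292-132950541 on the minus strand. Capitals mark the GC box GGGCGG and its reverse complement CCGCCC.
Itgb5: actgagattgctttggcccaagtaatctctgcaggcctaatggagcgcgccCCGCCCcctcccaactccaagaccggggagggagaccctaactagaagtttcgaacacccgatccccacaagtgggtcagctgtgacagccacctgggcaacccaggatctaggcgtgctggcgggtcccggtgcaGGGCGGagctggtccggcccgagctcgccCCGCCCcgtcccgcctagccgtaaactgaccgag
Itgb8: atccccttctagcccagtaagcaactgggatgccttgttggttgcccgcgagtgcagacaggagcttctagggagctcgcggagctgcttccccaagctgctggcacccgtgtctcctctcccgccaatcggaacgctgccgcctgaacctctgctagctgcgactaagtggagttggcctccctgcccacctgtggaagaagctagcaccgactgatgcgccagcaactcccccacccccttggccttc
Npnt: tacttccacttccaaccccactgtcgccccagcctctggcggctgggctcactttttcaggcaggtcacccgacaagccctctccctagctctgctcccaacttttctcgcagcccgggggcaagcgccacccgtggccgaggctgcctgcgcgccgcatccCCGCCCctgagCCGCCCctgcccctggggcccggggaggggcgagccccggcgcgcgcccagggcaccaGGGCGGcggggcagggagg
The Itgb5 and the Npnt window each held 1 GGGCGG and 2 CCGCCC, and the Itgb8 window held neither. Of 32851 mouse promoter windows of the same length, 10756 (32.74%) held at least 1 of them. GC content was 65.2% for Itgb5, 62.4% for Itgb8 and 74.0% for Npnt. The match describes these letters and was not tied to the array values.

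No member changed between the groups by the criterion of the study, a fold over 1.5 with an unadjusted p under 0.05. Of the 33 member probe sets, 25 were above the dim range, set at a mean of log2 4 over the 6 arrays, and 0 of these 25 met the criterion in limma, against 75 of 19619 (0.382%) on the whole array. At an unadjusted p under 0.05 there were also 0 of 25, where 8.12% of the array passed, and the lowest member p was 0.0590 in limma. After Benjamini-Hochberg adjustment over all probe sets, 0.00222% of the array and 0 member probe sets passed, and every member had a limma adjusted p of 1. A group of 3 against 3 cannot go below 0.1 in a two-sided exact permutation test. The 8 dim probe sets were 3 of Itga5, 2 of Itgav and 3 of Itgb1, and 5 of them had 1 value on all arrays.

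Of the 25 probe sets, 15 were higher and 10 lower in knockout glomeruli, and 55.1% of all probe sets that were not dim were higher. The median log2 difference was 0.042, against 0.015 for the array, and the largest, in Itgav, was 1.28-fold. The 95% interval of the difference lay within 1.5-fold for 19 of the 25 and reached past it for 6, with outer bounds of -1.24 and 0.81, so for those 6 a change of 1.5-fold was within the error. In RNA of whole glomeruli, a smaller number of cells of a type and less RNA per cell cannot be told apart.

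**Figure D1:**
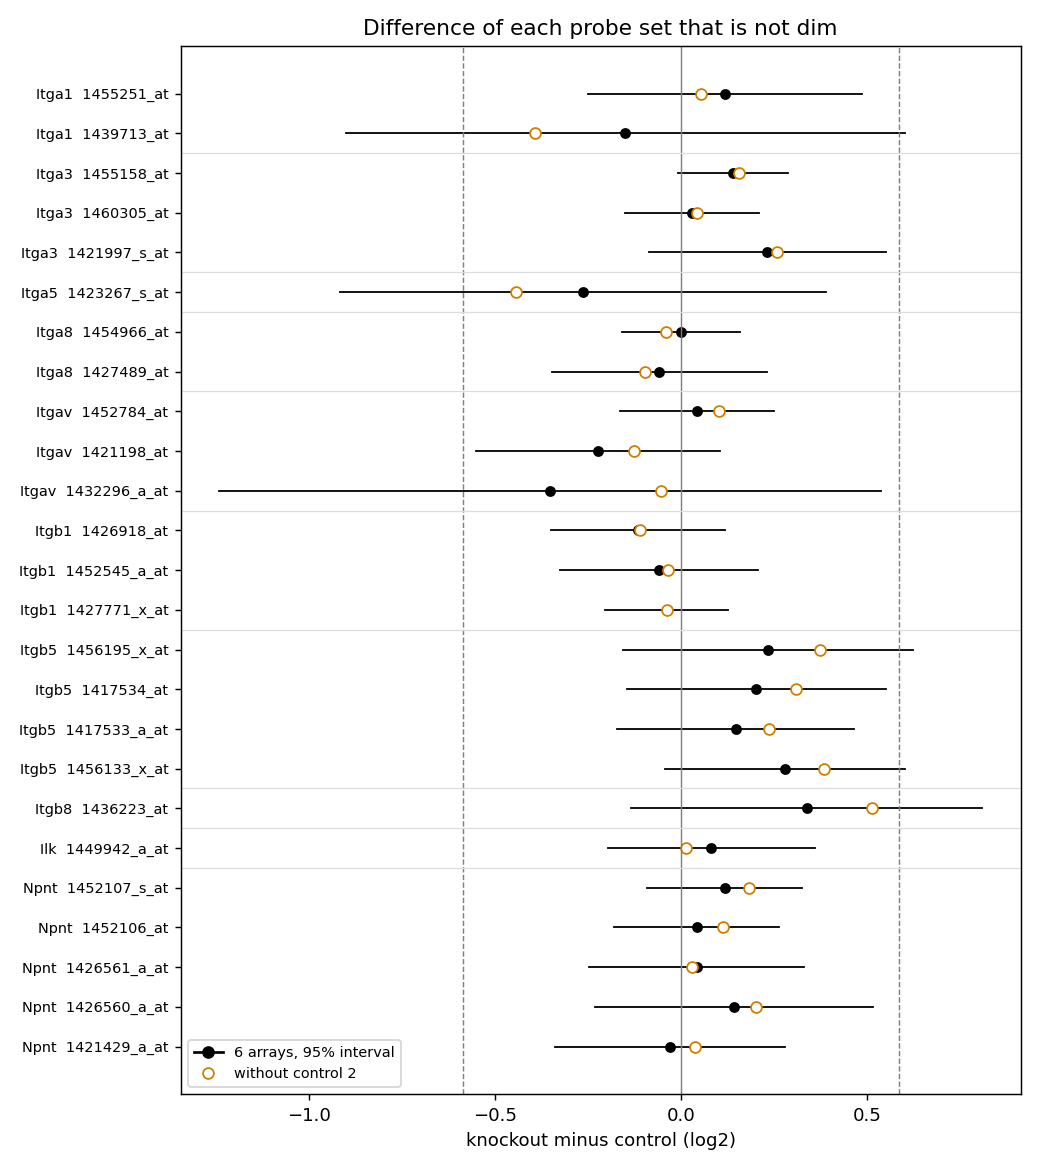
Difference of each member probe set above the dim range, in log2 units of knockout over control, with the limma 95% interval. Filled points use all 6 arrays and open points leave out control 2. Dashed lines mark 1.5-fold in either direction. All 25 intervals include 0, and the widest is that of an Itgav probe set, which spans -1.24 to 0.54.

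Npnt was read by 5 probe sets. The brightest, 1452107_s_at, had 13.60, 13.55 and 13.67 in knockout glomeruli and 13.47, 13.62 and 13.37 in control glomeruli. Control 2 lay among the knockout values and the other controls below all of them, with a difference of 0.12 ± 0.077 (SE, n = 3 mice in each group here and below, 95% interval -0.091 to 0.33). The second, 1452106_at, had 13.14, 13.09 and 13.04 in knockout glomeruli against 12.91, 13.19 and 13.04 in control glomeruli, a difference of 0.042. The remaining probe sets differed by 0.14 (1426560_a_at), 0.042 (1426561_a_at) and -0.030 (1421429_a_at, 0.037 without control 2), and each had groups that overlapped. Correlations among the 5 over the 6 arrays ran from -0.36 to 0.80, so they did not follow 1 common profile.

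Among the receptors for nephronectin and laminin, Itga8 was the member with the smallest difference. Its probe set 1454966_at had 13.99, 13.94 and 13.87 in knockout glomeruli and 14.03, 13.85 and 13.92 in control glomeruli. The groups covered nearly the same range, and the difference was -0.00031 ± 0.059 (SE, 95% interval -0.16 to 0.16). The other Itga8 probe set, 1427489_at, differed by -0.058 ± 0.11 (SE), and both 95% intervals lay within 1.5-fold.

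Itga3, the alpha chain of the podocyte laminin receptor, had the only member probe set whose groups did not overlap, 1 of 25 (4%) against 13.7% of the array. This probe set, 1455158_at, had 11.63, 11.77 and 11.63 in knockout glomeruli against 11.47, 11.57 and 11.57 in control glomeruli. All 3 knockout values stood above all control values by a small margin, with a difference of 0.14 ± 0.055 (SE, 95% interval -0.0083 to 0.29, limma p = 0.0590, exact permutation p = 0.1). Probe set 1421997_s_at had 10.20, 10.32 and 10.08 in knockout glomeruli against 9.77, 10.02 and 10.12 in control glomeruli, a difference of 0.23 ± 0.12 (SE). The third, 1460305_at, differed by 0.029 and its groups overlapped throughout.

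Itgb1 codes for the beta chain shared by the receptors of Itga1, Itga3, Itga5 and Itga8. Its probe set 1426918_at had 13.18, 12.94 and 12.88 in knockout glomeruli and 13.10, 13.12 and 13.12 in control glomeruli. Knockout 1 was the highest of the 6 arrays and the other knockout arrays were the lowest, with a difference of -0.12 ± 0.087 (SE). The same order held for 1452545_a_at, with 12.21, 11.96 and 11.88 in knockout glomeruli against 12.03, 12.13 and 12.08 in control glomeruli. It held as well for 1427771_x_at, which differed by -0.038, and the 3 probe sets correlated at 0.94 to 0.97. Without knockout 1 the 3 probe sets had differences of -0.20, -0.15 and -0.10 and an unadjusted limma p under 0.05, and these were the 3 of 25 member probe sets past it (array 8.76%). All 3 read the same gene, so they do not count as separate members.

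Itga1, a collagen receptor chain of mesangial and endothelial cells, had probe sets that differed in sign. Probe set 1455251_at had 8.90, 8.79 and 8.54 in knockout glomeruli against 8.80, 8.50 and 8.58 in control glomeruli, a difference of 0.12 ± 0.14 (SE). Probe set 1439713_at had 8.29, 8.24 and 7.91 in knockout glomeruli against 8.72, 7.81 and 8.35 in control glomeruli, a difference of -0.15 ± 0.28 (SE). Controls 1 and 2 were the extremes of this probe set, and its interval of -0.90 to 0.60 is among the widest of the members.

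Itga5, the fibronectin receptor chain, was above the dim range in 1 of its 4 probe sets. That probe set, 1423267_s_at, had 7.08, 6.83 and 6.87 in knockout glomeruli and 7.10, 6.84 and 7.65 in control glomeruli. Control 3 stood alone above the other 5 arrays, and the difference was -0.26 ± 0.24 (SE). Itga5 lies on chromosome 15, as does Ddn, so alleles that came with the targeted locus and the loss of dendrin cannot be told apart for this gene.

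Itgav had a bright probe set and weaker ones. The bright one, 1452784_at, had 12.28, 12.31 and 12.28 in knockout glomeruli and 12.28, 12.37 and 12.10 in control glomeruli, and differed by 0.043 ± 0.077 (SE). Probe set 1421198_at had 8.63, 8.55 and 8.37 in knockout glomeruli against 8.69, 8.93 and 8.60 in control glomeruli, a difference of -0.22 ± 0.12 (SE). The weakest, 1432296_a_at, had 5.66, 5.10 and 5.35 in knockout glomeruli against 5.52, 6.31 and 5.33 in control glomeruli. On control 2 all 3 probe sets were at their highest, and without it the last difference was -0.055 in place of -0.35.

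The partners of Itgav, Itgb5 and Itgb8, shared a profile over the arrays. Itgb8, with 1 probe set, had 10.80, 10.88 and 10.90 in knockout glomeruli and 10.41, 10.88 and 10.29 in control glomeruli. Control 2 lay within the knockout values, and controls 1 and 3 stood clearly below them. The difference was 0.34 ± 0.17 (SE, 95% interval -0.13 to 0.81, limma p = 0.120, exact permutation p = 0.2).

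The 4 Itgb5 probe sets correlated at 0.92 to 0.99 with each other. The brightest, 1456195_x_at, had 13.09, 13.17 and 13.25 in knockout glomeruli against 12.74, 13.21 and 12.85 in control glomeruli, a difference of 0.23 ± 0.14 (SE). Probe set 1456133_x_at had 12.00, 12.08 and 12.15 in knockout glomeruli against 11.61, 12.01 and 11.78 in control glomeruli, a difference of 0.28 ± 0.12 (SE, limma p = 0.0753, exact permutation p = 0.2). In both probe sets control 2 fell among the knockout values and the other controls lay below them, as for Itgb8. The other Itgb5 probe sets, 1417534_at and 1417533_a_at, differed by 0.20 and 0.15. Probe sets marked x_at or s_at can also bind related transcripts.

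Ilk, on the cytoplasmic side, had 12.10, 11.99 and 12.13 in knockout glomeruli and 11.93, 11.86 and 12.18 in control glomeruli. Control 3 was the highest array and the other controls the lowest, and the difference was 0.082 ± 0.10 (SE, 95% interval -0.20 to 0.36).

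**Figure D2:**
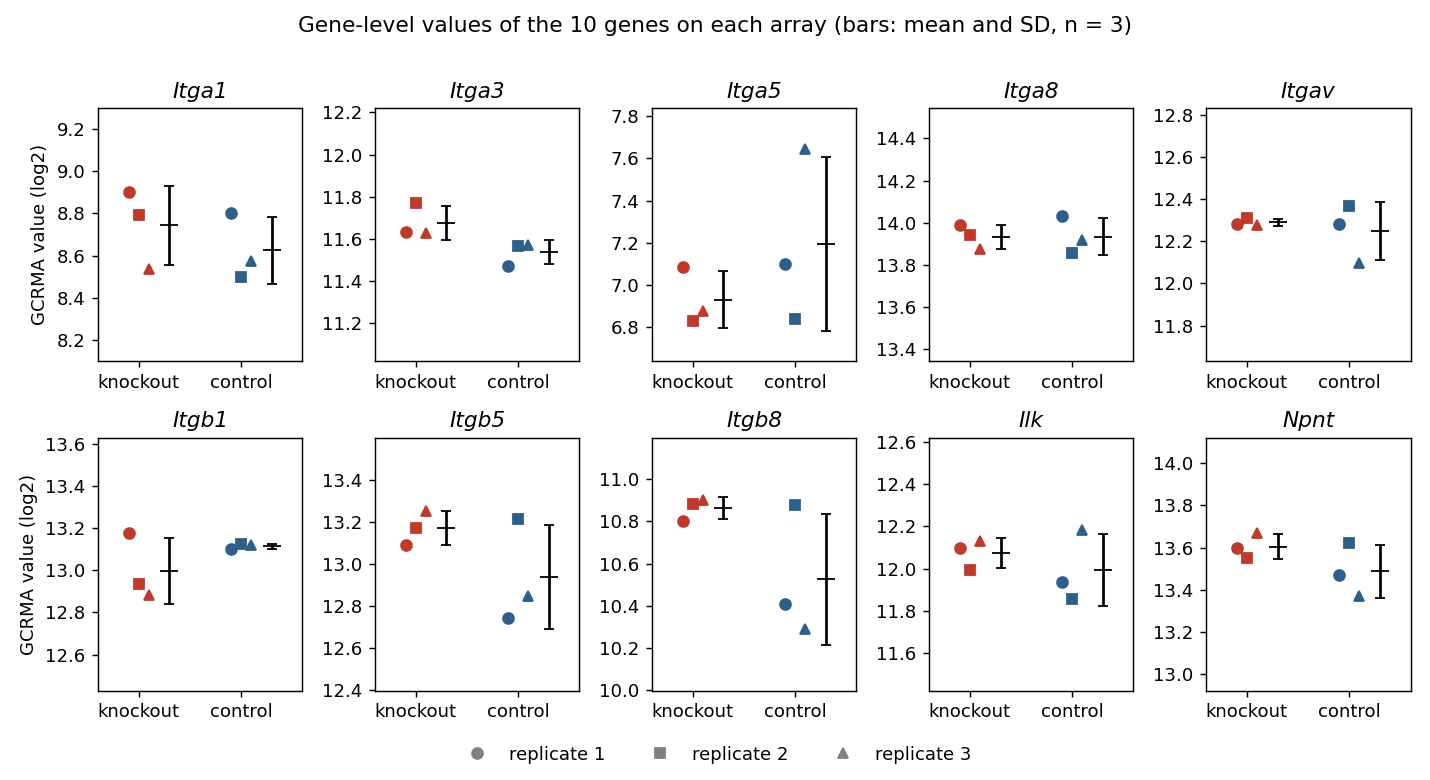
GCRMA log2 value of the brightest probe set of each member on each array, with 3 knockout mice on the left and 3 control mice on the right of every panel. Bars give the mean and SD of each group, marker shapes the replicate number, and the panels have separate axes, since levels of different probe sets cannot be set against each other. In Itgb8, Itgb5 and Npnt, controls 1 and 3 lie below all knockout mice and control 2 among them.

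The differences of the brightest Itgb5, Itgb8 and Npnt probe sets depended on which control was left out. Without control 1 they were 0.14, 0.28 and 0.11, and without control 3 they were 0.19, 0.22 and 0.059, all smaller than with 6 arrays. Without control 2 they were larger, and 5 of 25 member probe sets (20%) had an unadjusted p under 0.05 in limma, where 12.4% of the array passed. They were Itgb8 (0.51 ± 0.056, SE), 3 of the Itgb5 probe sets (0.31 to 0.38) and the brightest Npnt probe set (0.18 ± 0.056, SE). The 3 Itgb5 probe sets read the same gene, so the share of 20% does not count separate genes. All 5 were higher in knockout glomeruli, 0 met the criterion with its fold of 1.5, and the lowest limma adjusted p was 0.497, that of Itgb8. As a list, podocyte markers were low on controls 1 and 3, though Tcf21 had 13.64 on control 1 and 13.39 to 13.55 on the knockout arrays. All 9 of the 11 listed markers that were measured were above the dim range and higher in knockout glomeruli. Of all genes above that range, 60.1% were higher. Without knockout 3, control 1 or control 3, 7 of the 9 were higher and 2 lower, and without knockout 2 these counts were 8 and 1. With all 6 arrays the median difference of the 9 markers was 0.12. Of the 9, 0 had an unadjusted limma p under 0.05, where 5.75% of all genes passed on the higher side. Their median deviation was -0.17 and -0.15 on controls 1 and 3 and 0.10 on control 2. Nphs1, the nephrin gene, had the largest difference of these markers (0.24). The log2 of the summed marker signal was 16.62 to 16.70 in knockout glomeruli and 16.49 to 16.77 in control glomeruli. Without control 2 the median difference of the podocyte markers was 0.21, and 5 of the 9 had an unadjusted limma p under 0.05, where 10.3% of all genes passed on the higher side. The part of podocyte RNA in the Itgb5, Itgb8 and Npnt differences was not tested.

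**Figure D3:**
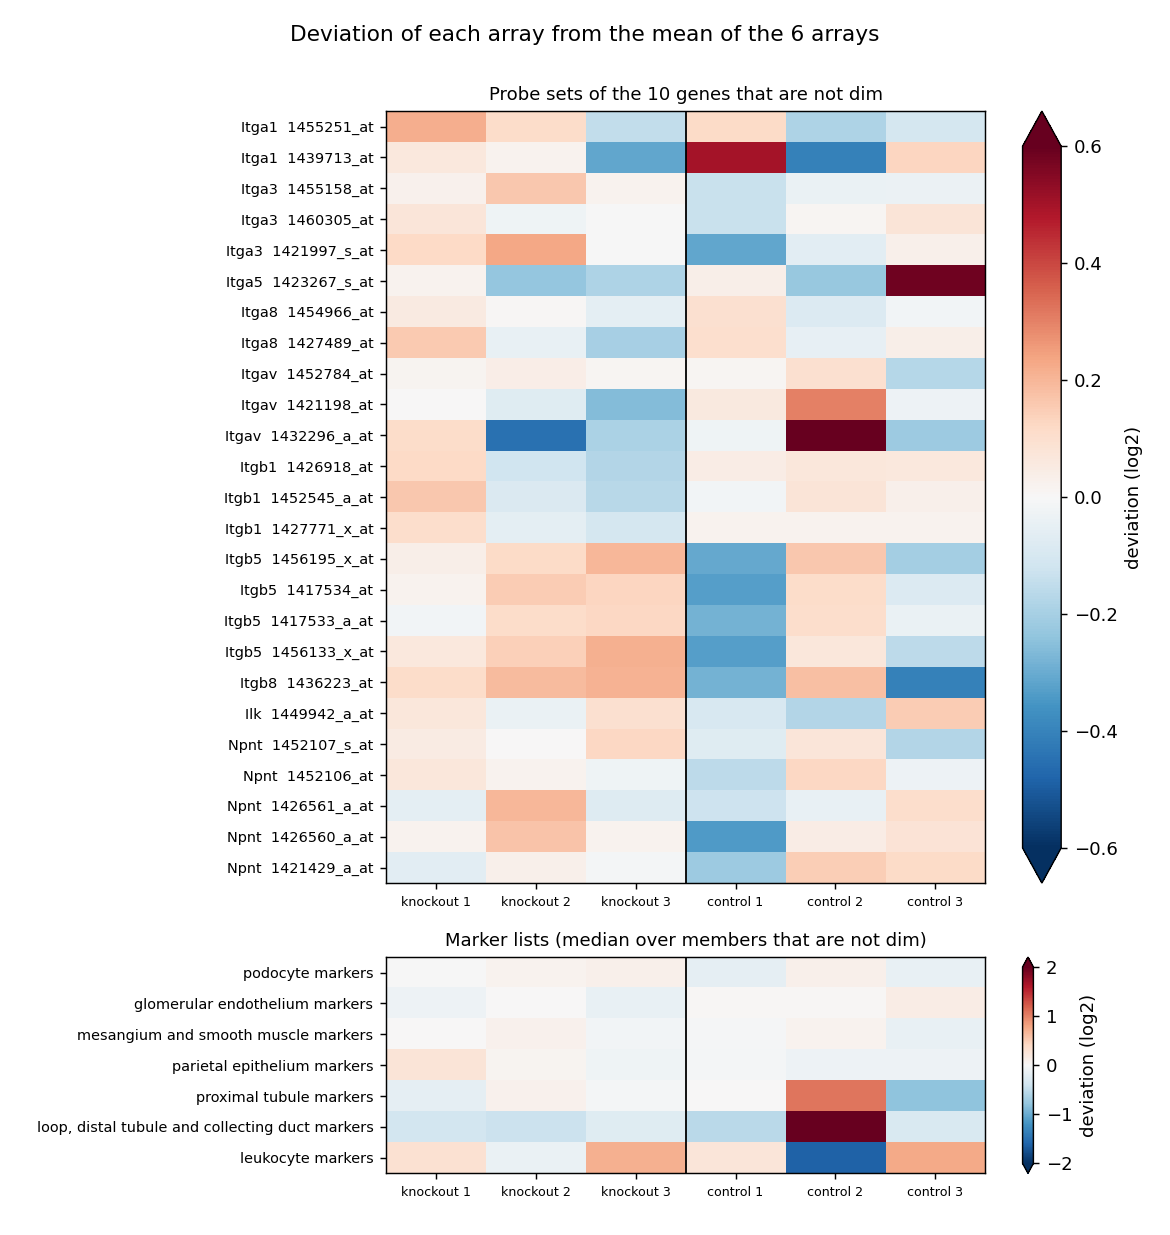
Deviation of each member probe set above the dim range from its mean over the 6 arrays, in log2 units, with the 3 knockout arrays left of the 3 control arrays. The Itgb5 and Itgb8 rows are low on controls 1 and 3 and raised on control 2, and the Itgb1 rows are high on knockout 1 alone among the knockouts. The lower panel gives the median deviation of each marker list, on a wider colour scale.

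As a description over 6 arrays, which share mice and preparation, profiles of the brightest probe set of each gene were compared. For Npnt this is 1452107_s_at, and the 5 Npnt probe sets correlated with each other at only -0.36 to 0.80. The profile of Itgb8 correlated with that of Itgb5 at 0.94 and with that of Npnt at 0.93, and Itgb5 with Npnt at 0.86. Itga1 and Itga8 correlated at 0.87, and Itga5 with Itgav at -0.94. The pairs named had the highest and the lowest values among the members. The 2 Itga1 probe sets correlated with each other at 0.67 and the 3 Itgav probe sets at 0.35 to 0.83. The Itga8 profile spanned only 0.18 log2 units. Among 2706 genes with a range over 0.5 log2 units, the closest profiles to Npnt were those of Scin (0.99), Asb15 (0.98) and Hoxc8 (0.97). Those closest to Itga8 were Tlr4, Cdh2 and Heph, each at 0.95.

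Of 36 cytoplasmic partners of integrins measured, such as talin, kindlin and PINCH proteins, 33 were above the dim range, 25 of them higher and 8 lower. The median difference was 0.080, against 0.030 for all genes above that range, of which 60.1% were higher. An unadjusted p under 0.05 was reached by 4 higher genes and 0 lower ones, where 5.75% of all genes passed on the higher side and 2.58% on the lower side. The 4 were Lims2 (0.28 ± 0.071, SE), which codes for a PINCH protein that binds Ilk, and Pxn (0.17 ± 0.038, SE), the paxillin gene. The others were Actn4 (0.15 ± 0.053, SE), an alpha-actinin of podocytes, and Fermt2 (0.13 ± 0.021, SE), a kindlin that activates beta chains. Their lowest limma adjusted p, that of Fermt2, was 0.930. Groups did not overlap in these same 4 of the 33 genes, and in 13.9% of all genes above the dim range. With 3 against 3, a low p and separate groups tend to go together, so this is not further evidence. Without control 1, 7 genes of the list were higher at an unadjusted limma p under 0.05, where 4.73% of all genes passed. The higher count was 3 without knockout 2 or knockout 3 and 4 without knockout 1. Without control 3 it was 5, with 1 lower gene. The share of all genes was not counted in the fits without a knockout array or without control 3. Without control 2 the higher count was 4, with 1 lower gene, where 10.3% of all genes passed on the higher side and 3.26% on the lower.

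Fermt2 had 12.94, 12.89 and 12.89 in knockout glomeruli against 12.76, 12.81 and 12.77 in control glomeruli. Lims2 had 11.07, 11.22 and 11.10 in knockout glomeruli against 10.86, 10.94 and 10.74 in control glomeruli. In both genes the lowest knockout array stood above the highest control array. By size, Itgb3bp at -0.25, Parvb at -0.22 and Actn1 at 0.20 followed Lims2 and had no unadjusted limma p under 0.05. Flna, coding for filamin A, differed by 0.049. Without control 2 the list stood at 19 higher and 14 lower with a median of 0.018, and 0 of its genes met the criterion with or without that array.

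The other integrin subunits gave 9 genes above the dim range of 17 measured, 4 higher and 5 lower, with a median of -0.033 and 0 at an unadjusted limma p under 0.05. The largest differences were -0.38 in Itgam, -0.27 in Itga6, the laminin receptor chain, 0.19 in Itgb2 and -0.12 in Itga4. Itgam and Itgb2 code for the chains of a leukocyte integrin, and Itgb2 was lowest on control 2, at 8.43, while the knockout arrays had 9.43 to 10.48. Itgal and Itgax were lowest on that array as well. Itgam was not, with 4.39 on control 2 and its lowest value, 3.66, on knockout 2. The mean of Itgam over all arrays was 4.54, just above the dim range, which ended at log2 4. The 15 leukocyte markers, which include Itgam and Itgb2, had a median difference of 0.46, 14 of them higher, but without control 2 the median was -0.20, with 1 higher and 14 lower. Without control 2 the subunit list had 2 higher and 7 lower, with a median of -0.44, and 2 lower genes had an unadjusted limma p under 0.05, where 3.26% of all genes passed on the lower side. Itgb4, of the laminin receptor of epithelia, was listed at 2.20 on all arrays.

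Matrix ligands were measured in 34 genes, 24 above the dim range, of which 9 were higher and 15 lower (median -0.064). Tgfb3, whose latent form integrins can bind, was the 1 gene with an unadjusted limma p under 0.05, at 5.80, 5.41 and 5.15 in knockout glomeruli against 4.97, 4.93 and 4.98 in control glomeruli (difference 0.49 ± 0.18, SE). Ccn1 at -0.58, Col4a1 at 0.47 and Postn at -0.43 were the other large differences and did not pass. The count at that p was 1 of 24, where 5.75% of all genes passed on the higher side. It was 0 without knockout 2, control 1 or control 3. Without control 2 it was 2 of 24, where 10.3% of all genes passed on the higher side. Without knockout 3, 1 gene met the criterion, and the share of all genes was not counted in that fit. The median turned to 0.011 without knockout 3 and to 0.026 without control 3.

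Membrane partners gave 15 genes above the dim range of 16, 6 higher and 9 lower, with a median of -0.033. Cd82, a tetraspanin, had 11.89, 11.91 and 12.01 in knockout glomeruli against 11.60, 11.72 and 11.74 in control glomeruli (difference 0.25 ± 0.055, SE). It was the 1 gene of this list of 15 with an unadjusted limma p under 0.05, where 5.75% of all genes passed on the higher side. Cd44 at 0.63, Sdc1 at -0.35 and the tetraspanin gene Tspan4 at -0.27 did not pass, and Cd44 was lowest on control 2. Without control 2 the list had 8 higher and 7 lower with a median of 0.0024. In that fit 2 genes were higher at an unadjusted limma p under 0.05, where 10.3% of all genes passed on the higher side. Without knockout 2, 1 gene was lower at that p, and the share of all genes was not counted in that fit.

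**Figure D4:**
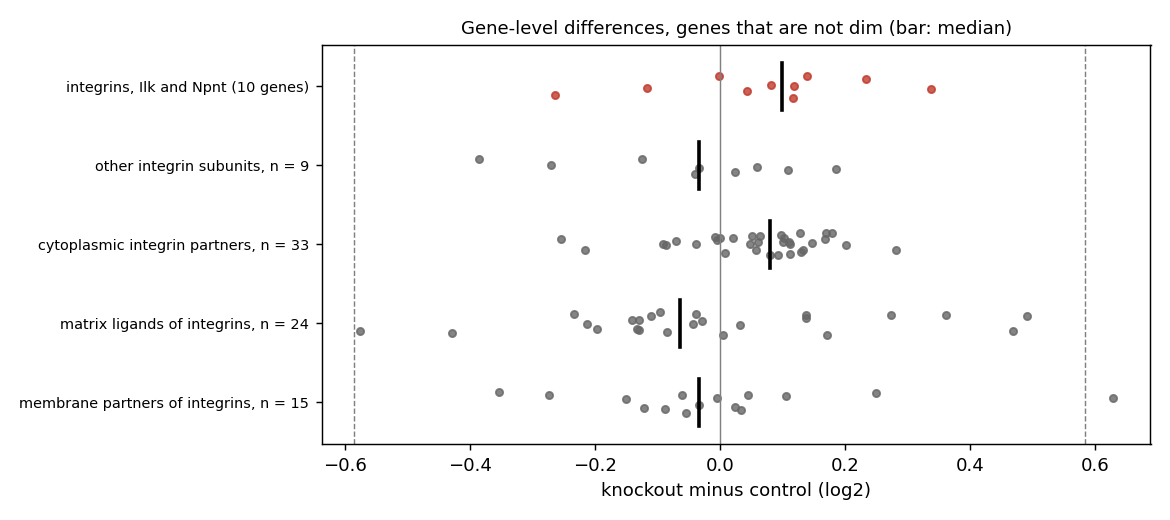
Gene-level differences of knockout over control in log2 units, for the members and the 4 lists of integrin partners, with 1 point for each gene above the dim range and a bar at the median. Medians of the partner lists lie between -0.064 for matrix ligands and 0.080 for cytoplasmic partners, and the line at 0 marks equal values.

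Of the cells next to the podocyte, all 12 endothelial markers had lower values in knockout glomeruli (median -0.17), and 5 of them (Meis2, Kdr, Tek, Flt1 and Emcn) had an unadjusted limma p under 0.05, where 2.58% of all genes passed on the lower side. Of all genes above the dim range, 60.1% were higher, with a median of 0.030. Without knockout 3, 10 of the 12 markers were lower, and without knockout 1 or control 3, 11 were. The count at an unadjusted limma p under 0.05 was 1 without knockout 3 or control 3, 2 without knockout 1 and 3 without control 1. The share of all genes on the lower side was not counted in those fits. Mesangial and smooth muscle markers gave 6 higher and 3 lower of 9, and Tagln, at 0.68, was the 1 marker that met the criterion, which 0.395% of all genes above the dim range met. Without control 2, 3 of the 9 met it, against 0.597% of those genes, and when any other array was left out 0 did. Which of these cells the signal of each integrin gene came from was not tested.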

How the data were processed

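The authors hybridised glomerular RNA of 3 dendrin knockout and 3 littermate control mice to Mouse Genome 430 2.0 arrays and normalised them with GCRMA 2.30.0 (background by probe sequence, quantile normalisation, summary of probes). The deposited values are log2 expression values, 1 column for each array. The quantile step makes the arrays alike in distribution, and low values gather near a floor.

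Knockout and control were compared with limma 3.58.1 in R 4.3.3 on all 45101 probe sets, with no filter, two-sided, with Benjamini-Hochberg adjustment. The study used SAM, of which a version written from its definition, not the study's package, was run as an alternative, and its criterion of a fold over 1.5 with an unadjusted p under 0.05 was kept. A probe set with a mean under log2 4 was called dim. A gene was represented by its brightest probe set. Named were all member probe sets, and from each list the genes that met the criterion and the largest differences, up to 4 in all, named where a result turned on them. Genes named for an unadjusted p under 0.05 or for their level on control 2 (Pxn, Actn4, Fermt2, Itgal, Itgax, Kdr, Tek, Flt1 and Emcn) were chosen after their values were seen. Itgb4 and Flna were named as candidates of the study's yeast screen. The profiles most like Npnt and Itga8 were the 3 with the highest Pearson correlation. The members and lists were chosen with earlier results of these data known. The labels call the arrays biological replicates. The fit was checked on simulated data. Alternatives were other filters, scalings, an offset, array weights, a replicate block and leaving out each array. Of the marker lists, the parietal epithelium list had 2 genes above the dim range (1 higher, 1 lower), and the proximal tubule list had 9 (3 higher, 6 lower, median -0.13, but 7 higher, 2 lower, median 0.48 without control 2). The loop and distal tubule list had 4 (0 higher, 4 lower, median -0.83, but 2 higher, 2 lower, median 0.035 without control 2). No genome was used beyond the RefSeq promoter table.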

Additional observations from a re-analysis of the deposited data

How the results depend on the processing

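The count of member probe sets that met the criterion and the count at an adjusted p under 0.05 were 0 under all 16 settings. The count at an unadjusted p under 0.05, 0 in the limma fit, was 1 with SAM, 1 with a mean of at least log2 6, 1 with a range over 0.1, 2 with arrays centred on their medians and 5 with array weights, and 0 to 5 when 1 array was left out. It was 5 without control 2, where 12.4% of the array passed, and 3 without knockout 1, where 8.76% did. The share of the array was not counted under the other alternative settings, so their counts have no background. Differences that changed sign were Itga8 1454966_at with centred arrays (0.019), Npnt 1421429_a_at with array weights (0.061), and, when a gene was given the median of its probe sets, Itga1 (-0.016) and Itgav (-0.22). With 1 array left out, sign changes occurred in Itga1 1439713_at (-0.39 to 0.063), Itga3 1460305_at (-0.031 to 0.075), Itga8 1454966_at (-0.040 to 0.048) and 1427489_at (-0.15 to 0.026), Itgav 1452784_at (-0.032 to 0.10), Itgb1 1452545_a_at (-0.15 to 0.0086) and 1427771_x_at (-0.10 to 0.0044), and Npnt 1452106_at (-0.025 to 0.11), 1426561_a_at (-0.047 to 0.10) and 1421429_a_at (-0.15 to 0.037). The cause was not tested. Deviations of same-numbered mice correlated at 0.0949, 0.352 and 0.248, and those of other knockout and control pairs at -0.32 to 0.094. Each mouse correlated best with its own number, a hint from the data, but the labels give no pairing, so it cannot be settled here. With a replicate block, 0 member probe sets met the criterion, 0 had an unadjusted p under 0.05 and 0 an adjusted one. Centring the arrays shifted the median difference of the array by 0.019 and repeated quantile normalisation by -0.0077. The array medians were 2.66 to 2.69, so the centring was set by low values. Dim probe sets say little about change, and the 5 of the members with 1 value on all arrays can show none. The 3 mice in each group limit what differences can be seen.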
